A study of Mus musculus with 30 samples.

Results

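The common monocyte progenitor (cMoP), a bone marrow cell committed to the monocyte lineage, was compared with proNeu2, a committed neutrophil progenitor, both from untreated mice. The comparison rests on the 3 libraries labelled naive cMoP and the 3 labelled naive proNeu2, which are 6 of the 30 libraries of the series, across all 11383 genes in the deposited table. The series profiled RNA of sorted mouse bone marrow progenitors in 10 groups of 3 libraries. 6 of those groups were naive, and the other 4 had received lipopolysaccharide and enter here only through the shared estimate of spread. All 6 libraries compared carried the genotype label WT and the label naive, with no treatment. The labels state no strain, age, sex, sort gates, batch or number of mice per library, so p-values measure the spread between libraries, which may be technical in part, and surface genes cannot be separated from those used for sorting.

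Monocytes and neutrophils arise from shared progenitors in the bone marrow, and the choice between them is tied to transcription factors that oppose each other. IRF8 and KLF4 drive the monocyte programme, while C/EBP epsilon and GFI1 drive the neutrophil programme. Neutrophil precursors fill their granules in waves, with primary granules holding the serine proteases and myeloperoxidase made first and secondary and tertiary granules holding lactoferrin, cathelicidin and gelatinase made later. Monocyte precursors instead come to carry the M-CSF receptor, the chemokine receptor CCR2 and the lysosomal machinery of a macrophage precursor.

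The depth was similar in both populations, with 26.3 to 39.2 M reads assigned to genes in cMoP (median 30.7 M) and 26.8 to 35.5 M in proNeu2 (median 31.3 M). The deposited table holds genes with a mean of 1.00 FPKM or more over all 30 libraries, so a gene expressed in 1 population could enter through it, and counts over gene lists are descriptions of the measured members. Levels are FPKM, read counts scaled to exon length and to library depth, as the authors deposited them. Each difference is a log2 fold change (log2FC) of FPKM + 1, cMoP minus proNeu2, with its standard error, and it understates the change of genes at low levels. Mean levels are given ± SD (n = 3) with cMoP first, and a value in parentheses after a gene is its log2FC, ± SE where one is given. Calls required an adjusted p under 0.05 in limma (Benjamini-Hochberg over all 11383 genes) together with a log2FC of 1 or more, or of -1 or less, which is a fold of 2. By that rule 1088 genes were higher in cMoP, 9.56% of those tested, and 799 were lower, 7.02%. In 1870 of the 1887 called genes no library of either population overlapped the other, a separation found without the fold threshold in 44.3% of all genes tested on the cMoP side and 23.8% on the proNeu2 side. A log2FC of at least 3 in size was reached by 141 genes higher and 117 lower, and one of at least 5 by 21 higher and 25 lower. The median over all genes was 0.15 on this scale and 0.00202 when libraries were scaled by the median of their gene ratios, so small positive values lie near the shift of the whole table. With that scaling 905 genes were higher and 946 lower, and 858 higher and 966 lower with the length trend removed, so that the share of calls on the cMoP side went from 57.7% to 48.9% and 47.0%. The proNeu2 libraries gave 15.4 to 17.4% of their summed FPKM to the 10 most abundant genes, against 6.40 to 6.56% in cMoP.

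**Figure D1:**
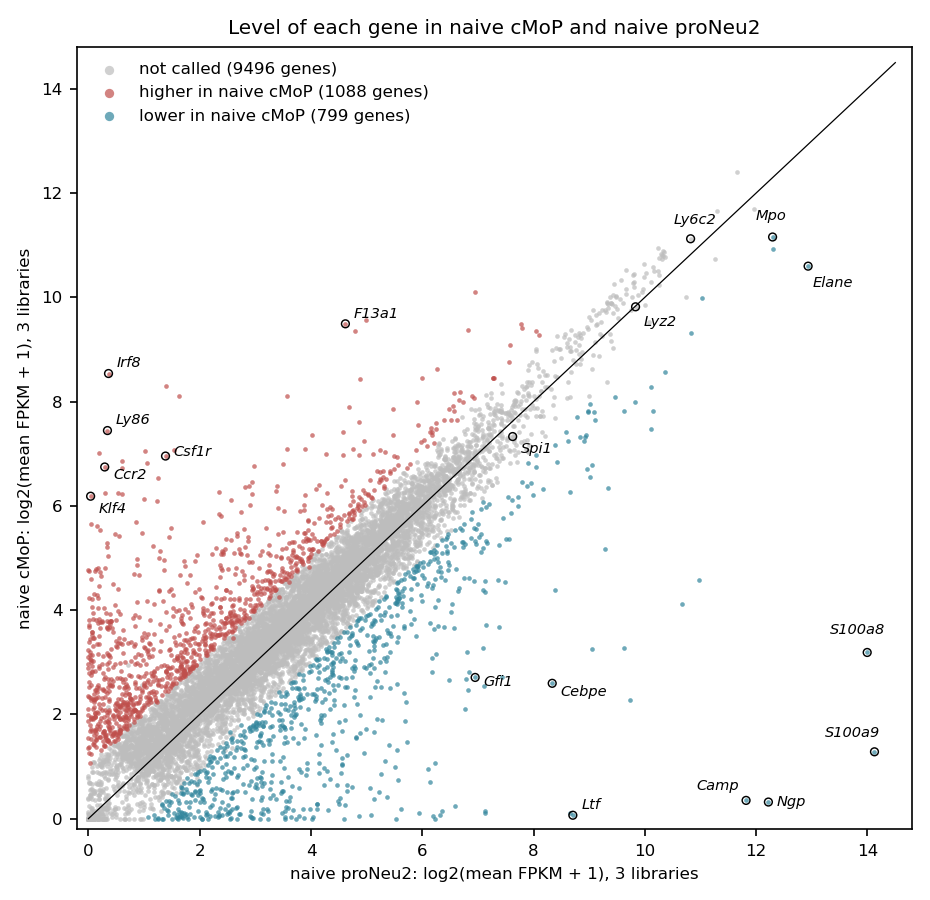
Each point is a gene, placed by log2(mean FPKM + 1) over 3 naive proNeu2 libraries (horizontal) and 3 naive cMoP libraries (vertical), with called genes in colour and the diagonal marking equal level. The 1088 genes higher in cMoP include Irf8, Ly86 and Klf4 near the left edge, and the 799 lower include S100a8, S100a9, Ngp and Camp at the lower right.

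The labels were first read against lineage markers. All 9 monocyte progenitor markers were detected in cMoP, and 8 of them (Irf8, Klf4, Csf1r, Ctss, F13a1, Ly86, Ccr2 and Cx3cr1) were called higher there, while Ly6c2 was high in both. Of the 12 neutrophil progenitor markers, 11 were called lower in cMoP and Ctsg, for cathepsin G, was not called. Ly6c2, a surface antigen of inflammatory monocytes, read 2173, 2227 and 2284 FPKM in cMoP and 1627, 1819.7 and 1979 FPKM in proNeu2 (log2FC 0.31 ± 0.25, adjusted p = 0.291). The ranges lie side by side without overlap, but the gene did not pass the test, whose estimate of spread is shared by all 10 groups. Ly6g, the surface marker of mature neutrophils, read 0, 0 and 0.108 FPKM in cMoP and 3.81, 4.1 and 4.28 FPKM in proNeu2 (log2FC -2.29 ± 0.41, adjusted p = 2.85e-05). Its level in proNeu2 was thus a few FPKM, below the 22.8 ± 3.06 FPKM of naive proNeu1.

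Several transcription factors of the monocyte lineage differed between the populations. Of 12 measured, 6 were higher in cMoP, 1 was lower and 5 were not called, with a median log2FC of 1.13 beside 0.15 over all genes. Irf8, the interferon regulatory factor required for monocyte and dendritic cell fate (chr8:120736358-120756694, build GRCm38), read 383, 379 and 349 FPKM in cMoP and 0.217, 0.394 and 0.242 FPKM in proNeu2. It had the largest log2FC of all tested genes on the cMoP side (log2FC 8.18 ± 0.18, adjusted p = 6.74e-22), and every cMoP library lay above every proNeu2 library. Klf4, a zinc finger factor of the inflammatory monocyte programme (chr4:55527143-55532466), read 71.7, 72.6 and 70.9 FPKM in cMoP and 0.0247, 0.0372 and 0.0211 FPKM in proNeu2. All 3 proNeu2 libraries were near 0 (log2FC 6.14 ± 0.18, adjusted p = 1.64e-19). Irf5, which acts downstream of Toll-like receptors, stood at 43.1 ± 3.51 against 0.388 ± 0.119 FPKM (4.99 ± 0.19). Zeb2, a transcriptional repressor of myeloid cells, was at 32.8 ± 2.36 against 4.32 ± 0.149 FPKM (2.67 ± 0.11). Tcf4, an E protein known from plasmacytoid dendritic cells, and Irf9, the DNA-binding part of the interferon-activated ISGF complex, were higher by 1.48 and 1.33. Id2, an inhibitor of E proteins, went the other way, with 1.72, 1.41 and 1.84 FPKM in cMoP and 39.9, 43.6 and 40.1 FPKM in proNeu2 (log2FC -3.99 ± 0.22, adjusted p = 2.87e-14), and the populations did not overlap. The number lower was 2 when cMoP replicate 2 or proNeu2 replicate 3 was left out. Not called were Bcl6 (-0.98), Klf2 (0.01), Irf7 (0.10), Tfec (0.36) and Mitf (0.92).

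Neutrophil-lineage factors were mostly lower in cMoP where they differed. Of 17 measured, 7 were lower, 1 was higher and 9 were not called, with a median of -0.68. Cebpe, the C/EBP family factor required for secondary granule genes (chr14:54710360-54712174), read 5.06, 4.51 and 5.57 FPKM in cMoP and 309, 327 and 330.1 FPKM in proNeu2. Its lowest proNeu2 library was far above its highest cMoP library (log2FC -5.74 ± 0.13, adjusted p = 1.23e-21). Gfi1, a transcriptional repressor needed for neutrophil differentiation (chr5:107716657-107726036), read 5.27, 5.71 and 5.62 FPKM in cMoP and 116, 119.7 and 132 FPKM in proNeu2 (log2FC -4.24 ± 0.13, adjusted p = 2.46e-19). Both factors were therefore detected in all 3 cMoP libraries, at a few FPKM. Ets1, an ETS family factor best known from lymphocytes, read 0.218, 0.12 and 0.0759 FPKM in cMoP and 48.7, 49.9 and 44.9 FPKM in proNeu2 (log2FC -5.42 ± 0.14, adjusted p = 9.27e-21). Klf5 (-2.99 ± 0.14), Bhlhe40 (-2.98 ± 0.15), the clock gene Per3 (-2.77 ± 0.10) and Cebpd (-1.15 ± 0.07) were lower in cMoP as well. The single member higher in cMoP was Cebpg (1.23 ± 0.08), a C/EBP protein without a transactivation domain. The factors that act in both lineages were close. Spi1, which encodes PU.1, read 162, 164 and 154 FPKM in cMoP and 189, 209.9 and 189.8 FPKM in proNeu2, a separation without overlap but small (log2FC -0.29 ± 0.06, adjusted p = 6.55e-05). Cebpa, required for the step into myeloid progenitors, read 107, 104 and 129 FPKM and 91.6, 98.4 and 103 FPKM in the same order (log2FC 0.21 ± 0.08, adjusted p = 0.0194), near the median of the whole table.

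**Figure D2:**
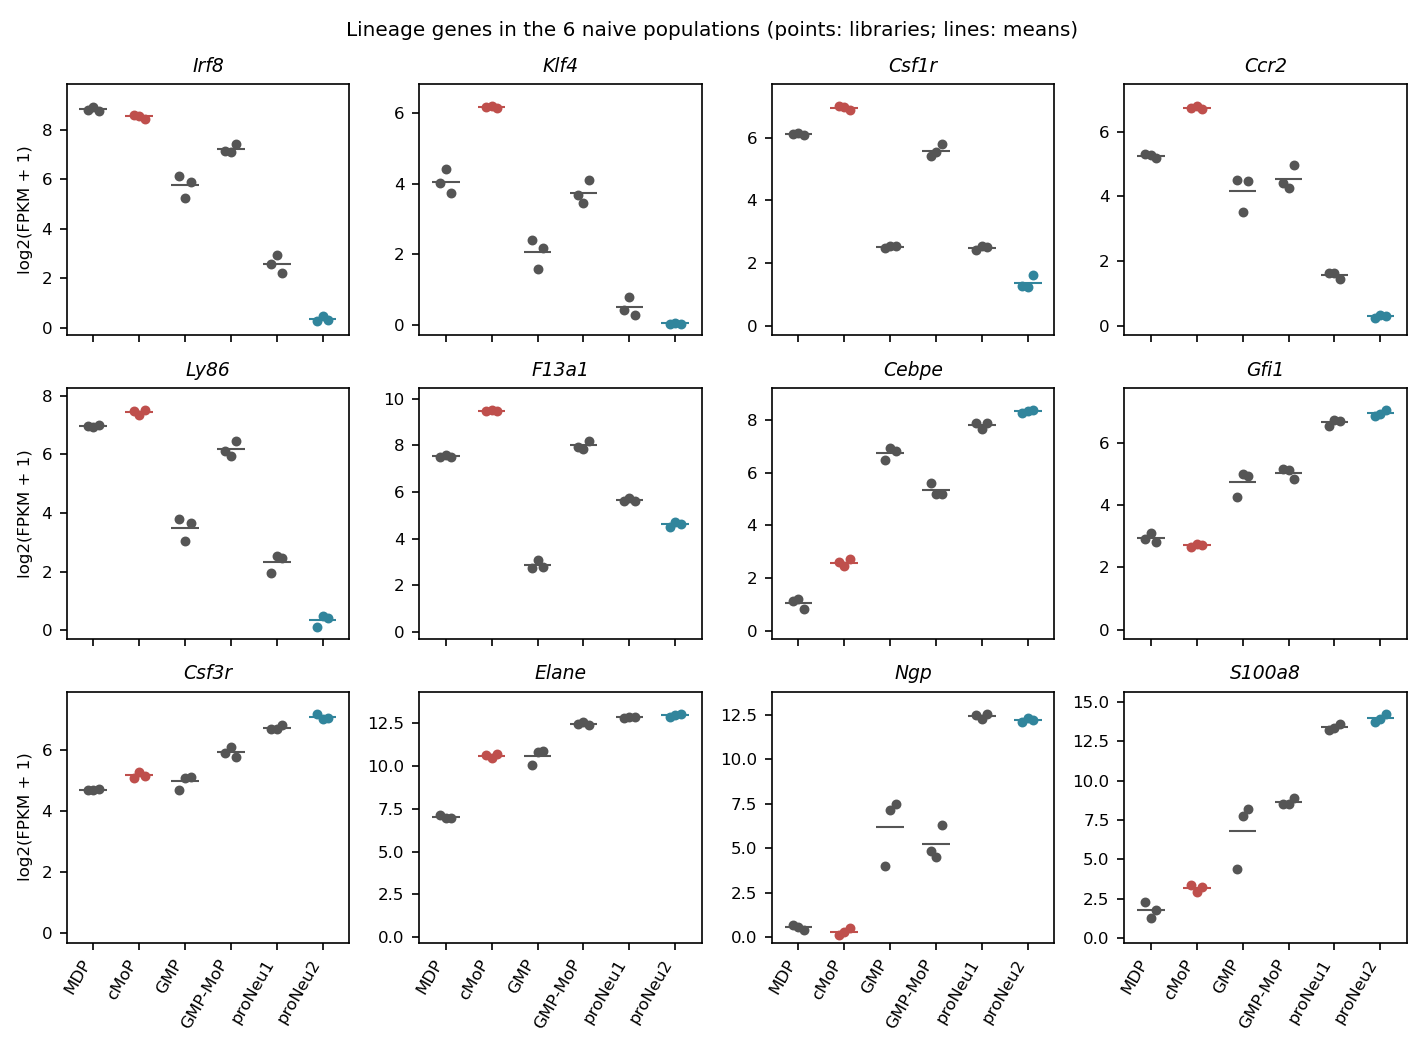
Level of 12 lineage genes as log2(FPKM + 1) in the 3 libraries of each of the 6 naive populations, with cMoP in red, proNeu2 in blue and a line at each mean. The cMoP and proNeu2 libraries do not overlap for any of the 12 genes, and the distance is smallest for Csf3r (log2FC -1.91).

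The same genes in the other naive populations gave an order of levels. Irf8 stood at 454 ± 29 FPKM in the monocyte-dendritic cell progenitor (MDP), 371 ± 18.8 in cMoP, 149 ± 20.9 in GMP-MoP, 54.8 ± 16.2 in the granulocyte-monocyte progenitor (GMP), 5.08 ± 1.55 in proNeu1 and 0.285 ± 0.0956 in proNeu2. MDP and cMoP did not pass the test (log2FC -0.29 ± 0.18, adjusted p = 0.186), proNeu1 and proNeu2 did (-2.21 ± 0.18, adjusted p = 2.26e-09), and the other neighbours in this order were not tested. Klf4 instead was highest in cMoP, at 71.7 ± 0.848 against 16 ± 4.05 in MDP and 12.7 ± 3.32 FPKM in GMP-MoP. For Cebpe the order was reversed, with 322 ± 11.6 in proNeu2, 224 ± 18.9 in proNeu1, 108 ± 17.9 in GMP, 39.9 ± 6.96 in GMP-MoP, 5.05 ± 0.528 in cMoP and 1.09 ± 0.289 FPKM in MDP. Gfi1 stood at 6.7 ± 0.77 in MDP and 5.54 ± 0.235 in cMoP (log2FC -0.23 ± 0.13, adjusted p = 0.146), and at 100.4 ± 6.91 in proNeu1 and 123 ± 8.55 FPKM in proNeu2 (0.29 ± 0.13, adjusted p = 0.0963).

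Growth factor and cytokine receptors divided by lineage. Of 25 measured, 11 were higher in cMoP, 5 lower and 9 not called, and the median was 0.15, the value over all genes (-0.02 with median-of-ratios scaling). Csf1r, the M-CSF receptor on which monocytes depend, read 127, 126 and 116 FPKM in cMoP and 1.44, 1.35 and 2.05 FPKM in proNeu2 (log2FC 5.58 ± 0.11, adjusted p = 1.92e-22), with no overlap. Il6st, the signalling subunit gp130 of the interleukin-6 receptor family, read 49.4, 52.6 and 46.3 FPKM in cMoP and 0.0476, 0.0257 and 0.035 FPKM in proNeu2 (log2FC 5.60 ± 0.13, adjusted p = 1.17e-21). Its ligand-binding partner Il6ra was detected in both, at 39.2 ± 0.197 against 6.33 ± 0.0184 FPKM (2.45 ± 0.07). The proNeu2 libraries thus held Il6ra at several FPKM and Il6st near 0. The interleukin-10 receptor chain Il10ra (4.15 ± 0.14), the Flt3 receptor of early and dendritic progenitors (3.40 ± 0.18) and both chains of the type I interferon receptor, Ifnar1 (1.09 ± 0.06) and Ifnar2 (1.42 ± 0.07), were higher in cMoP. Of the interferon-gamma receptor, Ifngr2 was higher (1.32 ± 0.09) and Ifngr1 lower (-1.08 ± 0.11). Csf3r, the G-CSF receptor that drives granulopoiesis, was the opposite of Csf1r in direction but not in size, with 33.1, 38.4 and 34.5 FPKM in cMoP and 145, 129 and 132 FPKM in proNeu2 (log2FC -1.91 ± 0.09, adjusted p = 2.86e-15). The cMoP libraries thus held a clear level of the G-CSF receptor. Il1r2, the interleukin-1 decoy receptor, read 0.275, 0.322 and 0.0719 FPKM in cMoP and 16.7, 15.5 and 16.8 FPKM in proNeu2 (log2FC -3.83 ± 0.16, adjusted p = 2.06e-16). Kit, the stem cell factor receptor of progenitors, was at 26.3 ± 0.841 against 59.3 ± 2.97 FPKM (-1.14 ± 0.08). The GM-CSF receptor chains Csf2ra (148 ± 19.9 against 199 ± 15.8 FPKM, -0.43) and Csf2rb (0.15) were not called.

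Receptors that guide migration divided too. Of 9 chemokine and chemoattractant receptors, 2 were higher in cMoP, 5 lower and 2 not called, with a median of -1.37. Ccr2, through which monocytes leave the marrow, read 107, 109 and 103 FPKM in cMoP and 0.188, 0.25 and 0.237 FPKM in proNeu2 (log2FC 6.45 ± 0.18, adjusted p = 6.4e-20). Cx3cr1, the fractalkine receptor, read 30.4, 30.3 and 30.8 FPKM in cMoP and 0.705, 0.795 and 1.0 FPKM in proNeu2 (log2FC 4.10 ± 0.14, adjusted p = 1.57e-18). Both were apart in all libraries. On the proNeu2 side stood the leukotriene B4 receptor Ltb4r1 (22.7 ± 2.49 against 162 ± 9.44 FPKM, -2.79 ± 0.10), the complement C5a receptor C5ar1 (0.132 ± 0.126 against 13.5 ± 2.36 FPKM, -3.67 ± 0.17), Cxcr2, a receptor of neutrophil-attracting chemokines (1.16 ± 0.379 against 9.82 ± 0.683 FPKM, -2.34 ± 0.19), the formyl peptide receptor Fpr2 (-1.58 ± 0.29) and Ccrl2 (-1.37 ± 0.24). Cxcr4, the receptor that retains cells in the marrow (0.93), and Ccr1 (-0.13) were not called.

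Adhesion genes changed in both directions, 8 of 25 higher in cMoP, 10 lower and 7 not called (median -0.05). Vcam1, an adhesion ligand usually read on stromal cells and macrophages, was the leader on the proNeu2 side, with 0.176, 0.13 and 0.0307 FPKM in cMoP and 116, 150.4 and 148 FPKM in proNeu2 (log2FC -6.96 ± 0.18, adjusted p = 1.06e-20). In proNeu1 it was at 24.1 ± 3.24 FPKM, and it was among the 11 genes called higher in proNeu2 than in proNeu1 (2.47 ± 0.18, adjusted p = 3.47e-10). The neutrophil antigen Cd177 (-4.73 ± 0.43), the tetraspanins Cd9 (-3.82 ± 0.17) and Cd81 (-3.10 ± 0.09), the integrin chains Itgam (-3.39 ± 0.15) and Itgb2 (-2.21 ± 0.15), which pair as CD11b/CD18, and Siglecf (-3.24 ± 0.12) were also lower in cMoP. Itgb7, the beta7 integrin chain, read 77.8, 68.4 and 79.2 FPKM in cMoP and 0.654, 0.336 and 0.322 FPKM in proNeu2 (log2FC 5.73 ± 0.23, adjusted p = 5.07e-17). Pecam1 (2.90 ± 0.10), the P-selectin ligand Selplg (2.45 ± 0.09), Cd93 (2.33 ± 0.12) and the LFA-1 chain Itgal (1.03 ± 0.07) were higher in cMoP too. Among antigens often used for sorting, 7 of 21 were higher, 7 lower and 7 not called, and sort gates are not given in the sources used here.

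Genes listed for primary granules were expressed in both populations and 12 of 17 were lower in cMoP, with 0 higher and 5 not called (median -1.49). The list is broad, as it holds the chaperone gene Calr, and Hp, which is counted with the secondary and tertiary granules too. Elane, neutrophil elastase (chr10:79886247-79888215), read 1595, 1379 and 1668 FPKM in cMoP and 7385, 7822 and 8251 FPKM in proNeu2 (log2FC -2.34 ± 0.15, adjusted p = 5.04e-13). Mpo, myeloperoxidase, read 2293, 2153 and 2397 FPKM in cMoP and 4815, 4943 and 5312 FPKM in proNeu2 (log2FC -1.14 ± 0.10, adjusted p = 1.96e-10). Prtn3, proteinase 3, read 1955, 1787 and 2091 FPKM in cMoP and 4849, 5149 and 5155 FPKM in proNeu2 (log2FC -1.38 ± 0.13, adjusted p = 8.4e-10). None of these 3 overlapped, yet each stood above 1000 FPKM in every cMoP library, and Mpo and Prtn3 were among the 10 most abundant genes there. Ctsg, cathepsin G, at 1029 ± 51.3 against 1701 ± 163 FPKM, did not reach the fold threshold (log2FC -0.72 ± 0.09, adjusted p = 2.37e-07). Gaps wider than that of Elane belonged to the granule membrane protein Nkg7 (34.9 ± 3.41 against 619 ± 47.8 FPKM, -4.11 ± 0.12), the serine protease Prss57 (-3.62 ± 0.11), Serpinb1a, an inhibitor of neutrophil serine proteases (-2.99 ± 0.09) and Ms4a3 (-2.63 ± 0.11), and the granule proteoglycan Srgn (-2.31 ± 0.10) came next to it. Lyz2, lysozyme, was equal in both at 901 ± 31.2 against 911 ± 131 FPKM (log2FC -0.01 ± 0.27, adjusted p = 0.99), and so stood among the most abundant genes without a difference. In bulk RNA, fewer cells that express a gene and less of its RNA per cell cannot be told apart.

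The windows of 250 bases before the start of primary granule genes, from RefSeq on build GRCm38.p6, were searched on both strands for AGGAAGT, letters of the PU.1 and ETS type. Starts are those of RefSeq and can differ from the gene positions given above, as the Elane window runs past the start given there. Windows were at hand for 13 of the 17 genes, of which 6 held the letters (Elane, Cst7, Prtn3, Mpo, Ctsg and Lyz2), against 9.42% of the 8472 tested genes with a window and 8.80% of all 27025 RefSeq genes. The same letters were in 6 of 20 secondary and tertiary granule genes, 3 of 15 mature neutrophil genes, 4 of 21 monocyte markers and 14.9% of the genes called lower in cMoP with a window, so they are not particular to primary granules. The windows of the 3 primary granule holders with the greatest change are shown, and any action of PU.1 on them was not tested. The match is in capitals, each window reads 5′ to 3′ towards the start, and a match of letters is a description, not a binding site.
Elane (chr10:79886062-79886311, plus strand): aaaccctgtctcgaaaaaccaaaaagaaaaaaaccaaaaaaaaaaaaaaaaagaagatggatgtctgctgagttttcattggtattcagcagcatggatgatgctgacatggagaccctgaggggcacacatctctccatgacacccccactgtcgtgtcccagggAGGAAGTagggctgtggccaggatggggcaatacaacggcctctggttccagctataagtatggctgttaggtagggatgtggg
Cst7 (chr2:150570165-150570414, plus strand): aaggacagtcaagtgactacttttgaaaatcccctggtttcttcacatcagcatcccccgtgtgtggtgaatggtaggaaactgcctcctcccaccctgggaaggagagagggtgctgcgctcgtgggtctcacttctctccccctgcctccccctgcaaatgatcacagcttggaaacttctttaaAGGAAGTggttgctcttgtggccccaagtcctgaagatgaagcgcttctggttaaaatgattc
Prtn3 (chr10:79879417-79879666, plus strand): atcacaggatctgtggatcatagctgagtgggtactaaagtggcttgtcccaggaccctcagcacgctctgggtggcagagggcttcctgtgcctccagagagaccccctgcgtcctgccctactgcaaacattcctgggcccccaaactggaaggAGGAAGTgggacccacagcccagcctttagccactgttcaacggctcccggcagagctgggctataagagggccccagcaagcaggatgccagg

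Genes of secondary and tertiary granules had the lowest median of the 42 lists. Of 24 measured, 22 were lower in cMoP, 1 was higher and 1 was not called, with a median log2FC of -4.30. Ngp, neutrophilic granule protein, read 0.106, 0.218 and 0.417 FPKM in cMoP and 4469.9, 5097 and 4736 FPKM in proNeu2 (log2FC -11.91 ± 0.76, adjusted p = 5.33e-13). Camp, the cathelicidin precursor, read 0.0858, 0.402 and 0.336 FPKM in cMoP and 2815, 3952 and 4062 FPKM in proNeu2 (log2FC -11.46 ± 0.68, adjusted p = 1.51e-13). Ltf, lactoferrin, read 0.139, 0 and 0 FPKM in cMoP and 419, 448 and 382 FPKM in proNeu2 (log2FC -8.64 ± 0.72, adjusted p = 1.16e-10). These 3 genes, all on chromosome 9, were thus near 0 in every cMoP library, Ltf being listed at 0 in 2 of them, and at 382 FPKM or more in every proNeu2 library. Ltf lost its call with voom on the recovered reads (adjusted p = 0.0583). Lcn2, lipocalin 2, which binds bacterial siderophores, was detected in cMoP at 6.68, 10.4 and 8.83 FPKM, with 795, 858 and 722 FPKM in proNeu2 (log2FC -6.38 ± 0.39, adjusted p = 3.2e-13). Chil3, a chitinase-like protein (23 ± 2.3 against 2010.4 ± 268 FPKM, -6.38 ± 0.63), and Fcnb, ficolin B (16.4 ± 2.06 against 1634 ± 178 FPKM, -6.55 ± 0.36), had means above 10 FPKM in cMoP. Wfdc21 (-8.54 ± 0.26), Lrg1 (-6.37 ± 0.25), Chil1 (-5.52 ± 0.25) and Olfm4 (-4.34 ± 0.25) were lower as well. So was Cd63 (-5.81 ± 0.15), a tetraspanin that is also on the lysosomal list and is not particular to these granules. The gelatinase gene Mmp9 was low in both, at 0.0205, 0 and 0 FPKM in cMoP and 2.16, 3.32 and 1.23 FPKM in proNeu2 (log2FC -1.63 ± 0.40, adjusted p = 0.000993). Mmp8, neutrophil collagenase, was the member higher in cMoP, with 7.77, 7.02 and 8.04 FPKM there and 1.15, 1.81 and 0.449 FPKM in proNeu2 (log2FC 2.06 ± 0.36, adjusted p = 2.28e-05), and its libraries did not overlap.

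**Figure D3:**
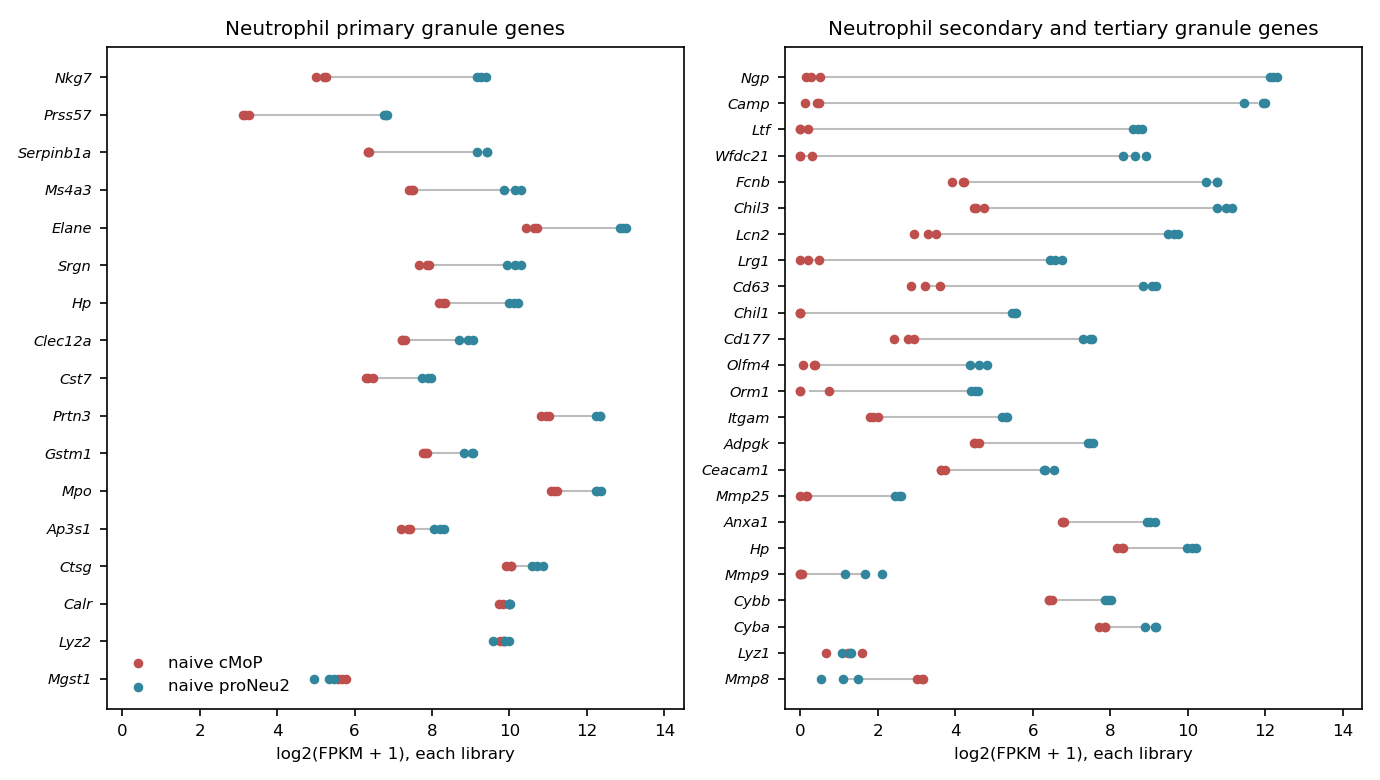
Level of each granule gene as log2(FPKM + 1) in the 3 naive cMoP libraries (red) and the 3 naive proNeu2 libraries (blue), ordered by log2FC within the 17 primary granule genes (left) and the 24 secondary and tertiary granule genes (right). Primary granule genes are expressed in both populations, while Ngp, Camp, Ltf and Wfdc21 lie near 0 in cMoP.

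C/EBP epsilon is known to act on genes of this list, and its gene Cebpe was among the factors lower in cMoP, so the same windows were searched for TTNNGCAA, letters of the C/EBP type, on both strands. Of 20 members with a window, 7 held the letters (Ngp, Ltf, Fcnb, Lcn2, Anxa1, Lyz1 and Mmp8), against 9.16% of tested genes and 10.8% of all RefSeq genes. They were also in 6 of 15 mature neutrophil genes, a list that shares members with this one, in 2 of 13 primary granule genes, 3 of 21 monocyte markers and 13.4% of the genes called lower in cMoP. An ETS-IRF composite motif searched in the same way was in 0 windows of both granule lists. It was in 2.30% of tested genes and 2.68% of all RefSeq genes, so a count of 0 in lists this short tells little. The 7 members with C/EBP-type letters include Lyz1, which was not called (-0.06), and Mmp8, which was higher in cMoP. For the 4 holders with the greatest change the windows follow, with the C/EBP-type letters in capitals and, in Fcnb, also an AGGAAGT.
Ngp (chr9:110419558-110419807, plus strand): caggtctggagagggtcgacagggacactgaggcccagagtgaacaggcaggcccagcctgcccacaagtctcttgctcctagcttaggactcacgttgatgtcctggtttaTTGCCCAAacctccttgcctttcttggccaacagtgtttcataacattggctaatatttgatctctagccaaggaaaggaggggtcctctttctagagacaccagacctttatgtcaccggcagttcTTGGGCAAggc
Ltf (chr9:111019042-111019291, plus strand): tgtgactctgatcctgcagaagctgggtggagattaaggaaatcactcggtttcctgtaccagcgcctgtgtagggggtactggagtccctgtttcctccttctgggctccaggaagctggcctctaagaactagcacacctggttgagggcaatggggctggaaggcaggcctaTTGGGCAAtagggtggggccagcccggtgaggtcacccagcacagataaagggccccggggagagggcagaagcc
Fcnb (chr2:28084879-28085128, minus strand): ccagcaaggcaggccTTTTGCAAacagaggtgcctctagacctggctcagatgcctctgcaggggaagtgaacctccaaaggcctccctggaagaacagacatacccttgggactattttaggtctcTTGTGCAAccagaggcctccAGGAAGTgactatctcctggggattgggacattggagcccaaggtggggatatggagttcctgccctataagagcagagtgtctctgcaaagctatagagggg
Lcn2 (chr2:32387740-32387989, minus strand): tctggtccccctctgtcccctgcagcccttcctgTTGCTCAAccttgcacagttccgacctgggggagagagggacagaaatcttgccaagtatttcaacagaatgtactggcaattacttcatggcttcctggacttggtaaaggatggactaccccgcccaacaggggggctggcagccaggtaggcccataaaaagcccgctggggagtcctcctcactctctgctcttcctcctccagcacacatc
In Ngp the matches began 138 and 11 bases before the start, in Ltf 75, in Fcnb 235 and 123 and in Lcn2 216.

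The S100 and annexin families, calcium-binding proteins of the cytosol, split evenly: of 15 measured, 6 were higher in cMoP, 6 lower and 3 not called. S100a9, a subunit of calprotectin (chr3:90692632-90695721), read 1.5, 1.53 and 1.27 FPKM in cMoP and 14878, 18070.1 and 20676 FPKM in proNeu2. It had the lowest log2FC of all tested genes (log2FC -12.83 ± 0.66, adjusted p = 7.92e-15) and was the most abundant gene of every proNeu2 library. S100a8, its partner in the same cluster of chromosome 3 (chr3:90668978-90670035), read 9.3, 6.42 and 8.6 FPKM in cMoP and 13912, 15722 and 19335 FPKM in proNeu2 (log2FC -10.81 ± 0.57, adjusted p = 1.19e-14). S100a10, a partner of annexin A2, was the reverse, with 279, 271 and 279 FPKM in cMoP and 2.14, 1.69 and 2.39 FPKM in proNeu2 (log2FC 6.50 ± 0.16, adjusted p = 4.29e-21). S100a6 (50.4 ± 3.13 against 3.16 ± 0.605 FPKM, 3.64 ± 0.37), Anxa6 (3.53 ± 0.09), Anxa5 (1.71 ± 0.11), Anxa4 (1.59 ± 0.09) and Anxa2 (1.37 ± 0.08) were higher in cMoP. Anxa1, the glucocorticoid-induced annexin of neutrophils (109 ± 2.36 against 529 ± 40.9 FPKM, -2.26 ± 0.08), S100a11 (-1.82 ± 0.08), Anxa11 (-1.17 ± 0.09) and S100a1 (-1.05 ± 0.10) were lower.

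Genes named as monocyte markers were higher in cMoP in 23 of 26 cases, with 0 lower and 3 not called, and a median of 3.40. Ly86, which encodes MD-1, the partner of the Toll-like receptor homologue CD180, read 176, 162 and 182 FPKM in cMoP and 0.0659, 0.398 and 0.339 FPKM in proNeu2 (log2FC 7.11 ± 0.18, adjusted p = 1.06e-20). Ms4a6c, a four-span membrane protein of monocytes, read 325, 306 and 312 FPKM in cMoP and 2.01, 1.26 and 1.6 FPKM in proNeu2 (log2FC 6.92 ± 0.13, adjusted p = 3.68e-23). F13a1, the A subunit of coagulation factor XIII, read 714, 726 and 715 FPKM in cMoP and 21.7, 25.3 and 23.7 FPKM in proNeu2 (log2FC 4.88 ± 0.13, adjusted p = 2.09e-20). The 3 genes were apart in all libraries, but F13a1 was still at 23.6 ± 1.8 FPKM in proNeu2. Fibronectin Fn1 (4.65 ± 0.16), the thiol reductase Ifi30 (4.86 ± 0.15), galectin Lgals3 (3.92 ± 0.29), Ahnak (4.22 ± 0.21) and the scavenger-like Cd68 (2.33 ± 0.12) were among the rest. Sirpa (-0.15), Plac8 (0.26) and Ly6c2 (0.31) were the 3 not called.

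Other genes among the 12 leaders on the cMoP side were not on lineage lists or stood out within them. Cd34, a sialomucin of early progenitors, read 108, 115 and 115 FPKM in cMoP and 0.973, 1.17 and 1.08 FPKM in proNeu2 (log2FC 5.78 ± 0.10, adjusted p = 6.83e-24). Tpm4, a tropomyosin, read 114, 116 and 117 FPKM in cMoP and 0.658, 0.646 and 0.254 FPKM in proNeu2 (log2FC 6.27 ± 0.19, adjusted p = 3.23e-19). Both were lower in proNeu2 without overlap, and in MDP they stood at 299 ± 8.59 and 129.9 ± 5.5 FPKM. Prdx4, a peroxiredoxin of the endoplasmic reticulum (104 ± 3.1 against 0.513 ± 0.169 FPKM, 6.13 ± 0.17), and Rasa4, a calcium-regulated Ras GTPase-activating protein (74.8 ± 4.02 against 0.236 ± 0.0257 FPKM, 5.94 ± 0.10), completed the leaders.

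Lysosomal genes were higher in cMoP in 9 of 25 cases, lower in 3 and not called in 13 (median 0.54). Ctss, cathepsin S, which processes the invariant chain of MHC class II, read 128, 132 and 133 FPKM in cMoP and 0.99, 0.872 and 1.2 FPKM in proNeu2 (log2FC 6.03 ± 0.25, adjusted p = 7.62e-17). Ctsc, cathepsin C, which activates the granule serine proteases, read 55.3, 53.4 and 56.2 FPKM in cMoP and 4.0, 4.35 and 4.28 FPKM in proNeu2 (log2FC 3.42 ± 0.11, adjusted p = 4.37e-19). The activator of elastase was thus lower in the population with more Elane RNA. Ctsh (151 ± 2.79 against 29.9 ± 2.27 FPKM, 2.30 ± 0.14) and the asparaginyl endopeptidase Lgmn (2.23 ± 0.15) were higher in cMoP. The sialidase Neu1 (16.4 ± 0.87 against 91.9 ± 4.17 FPKM, -2.42 ± 0.08) and Cd63, named above with the granules, were among the lower. Cathepsins B (-0.19) and D (-0.43) were not called.

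Antigen presentation was read in the genes of both MHC classes. Of 17 genes of dendritic cells and MHC class II, 8 were higher in cMoP, 1 lower and 8 not called (median 0.81). The peptide loaders H2-DMa (43.6 ± 2.69 against 5.38 ± 0.60 FPKM, 2.81 ± 0.13) and H2-DMb1 (2.06 ± 0.13), the restriction factor Bst2 (1.95 ± 0.14) and Clec9a (3.9 ± 0.443 against 0.061 ± 0.0624 FPKM, 2.21 ± 0.17), a receptor of cross-presenting dendritic cells, were higher. The classical chains H2-Ab1 (-0.41), H2-Aa (0.59) and H2-Eb1 (0.12) and the invariant chain Cd74 (0.35) were not called. Of 15 MHC class I presentation genes, 3 were higher and 12 not called, a share near the 16.6% of all tested genes called in either direction. The list median was 0.32, and 0.15 with median-of-ratios scaling. The 3 were H2-M3 (1.94 ± 0.13), the transactivator Nlrc5 (1.42 ± 0.11) and the immunoproteasome subunit Psmb8 (1.16 ± 0.07), which fell just under the fold threshold with median-of-ratios scaling (0.99) and with the length trend removed (0.96).

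Sensors of microbes differed in both directions, with 11 of 27 higher in cMoP, 4 lower and 12 not called (median 0.41). Nlrp3, the inflammasome sensor, read 9.52, 13.5 and 8.55 FPKM in cMoP and 0.0552, 0.0834 and 0.0158 FPKM in proNeu2 (log2FC 3.43 ± 0.26, adjusted p = 2.44e-11). Clec7a, the beta-glucan receptor Dectin-1, read 63.8, 58.5 and 69.9 FPKM in cMoP and 6.69, 5.73 and 6.95 FPKM in proNeu2 (log2FC 3.12 ± 0.19, adjusted p = 2.55e-13). Tlr9, a sensor of unmethylated DNA, read 8.79, 7.6 and 6.99 FPKM in cMoP and 0.0429, 0.0162 and 0.092 FPKM in proNeu2 (log2FC 3.06 ± 0.15, adjusted p = 3.02e-15). The populations did not overlap for these 3. Cd180 (3.04 ± 0.14), the DNA-triggered adaptor Sting1 (2.38 ± 0.07), the TLR4 co-receptor Ly96 (2.18 ± 0.23), Tlr1 (1.51 ± 0.14), Tlr2 (1.04 ± 0.13) and Cd14 (1.11 ± 0.37) were also higher. Tlr4 itself, the receptor of lipopolysaccharide, was lower in cMoP (2.24 ± 0.272 against 9.83 ± 0.743 FPKM, -1.74 ± 0.11), as were Clec4a2 (11.6 ± 0.587 against 93.6 ± 9.27 FPKM, -2.91 ± 0.22), the signalling inhibitor Irak3 (-1.73 ± 0.05) and Clec5a (-1.48 ± 0.16). The adaptor Myd88 (-0.27) was not called.

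The lists of the phagocyte NADPH oxidase and of eicosanoid synthesis had no gene higher in cMoP. Of 9 genes of the phagocyte NADPH oxidase, which makes superoxide, 6 were lower and 3 not called (median -1.30). Cybb, the catalytic subunit, read 84.4, 88.6 and 84.6 FPKM in cMoP and 244, 261 and 234 FPKM in proNeu2 (log2FC -1.51 ± 0.18, adjusted p = 5.16e-08). Ncf1, the cytosolic organizer, read 166, 156 and 168 FPKM in cMoP and 504, 497 and 472 FPKM in proNeu2 (log2FC -1.58 ± 0.06, adjusted p = 8.11e-17). The 6 differences lay between -1.79 (the proton channel Hvcn1) and -1.28 (Cyba, the second membrane subunit), with Rac2 at -1.39 ± 0.05 and Ncf4 at -1.30 ± 0.09, and every oxidase gene named was above 10 FPKM in cMoP too. Of 9 genes of eicosanoid synthesis, 5 were lower and 4 not called (median -1.83). Alox5, 5-lipoxygenase, which starts leukotriene synthesis, read 0.461, 0.256 and 0.289 FPKM in cMoP and 37.4, 45.9 and 37.7 FPKM in proNeu2 (log2FC -4.95 ± 0.19, adjusted p = 2.74e-17). Lta4h, which makes leukotriene B4, was at 254 ± 4.04 against 904 ± 34.5 FPKM (-1.83 ± 0.09), and its partner Alox5ap was not called (-0.51). Ptgs1, cyclooxygenase 1, was at 6.07 ± 0.489 against 71.6 ± 3.54 FPKM (-3.36 ± 0.07), Ptgr1 at -1.94 ± 0.12 and Alox15 at -2.02 ± 0.18.

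Complement and coagulation genes were lower in cMoP in 10 of 19 cases, higher in 3 and not called in 6 (median -1.05). Coagulation factor V, F5 (1.97 ± 0.197 against 27.1 ± 1.44 FPKM, -3.24 ± 0.15), Serpine2, a protease inhibitor (1.06 ± 0.0897 against 22.6 ± 0.628 FPKM, -3.52 ± 0.10), and complement C3 (-2.27 ± 0.14) were lower. Thrombomodulin Thbd (18.6 ± 0.641 against 1.88 ± 0.448 FPKM, 2.78 ± 0.15) and properdin Cfp (2.72 ± 0.10), with F13a1, were the 3 higher. Among Fc and inhibitory receptors 4 of 18 were higher, 6 lower and 8 not called (median -0.38). Milr1, an inhibitory receptor of mast cells and monocytes (41.4 ± 2.95 against 1.73 ± 0.244 FPKM, 3.96 ± 0.10), the common Fc receptor gamma chain Fcer1g (1.60 ± 0.14), Pirb (1.46 ± 0.21) and Gpr141 (1.57 ± 0.12) were higher in cMoP. Cd300lf (0.835 ± 0.307 against 22.2 ± 0.321 FPKM, -3.68 ± 0.18), Pilrb1 (-3.39 ± 0.13), Pilra (-2.87 ± 0.13) and Fcgr4 (-2.21 ± 0.13) were lower, whereas Fcgr3 (-0.35) and Fcgr2b (-0.41) were not called.

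Genes listed as mature neutrophil markers were lower in cMoP in 13 of 17 cases, higher in 2 and not called in 2 (median -2.29). Pglyrp1, a peptidoglycan recognition protein, read 3.33, 4.83 and 3.38 FPKM in cMoP and 791, 894 and 850.5 FPKM in proNeu2 (log2FC -7.46 ± 0.16, adjusted p = 3.88e-22). G0s2, an inhibitor of lipolysis (0.665 ± 0.069 against 46.5 ± 1.16 FPKM, -4.84 ± 0.17), Retnlg (-4.09 ± 0.51), Trem3 (-2.77 ± 0.17) and Padi4, the histone-citrullinating enzyme of extracellular traps (4.79 ± 0.483 against 37.3 ± 1.21 FPKM, -2.73 ± 0.13), were lower as well. Slpi, a secreted protease inhibitor (193 ± 16.4 against 28.1 ± 5.05 FPKM, 2.75 ± 0.13), was with Mmp8 the member higher in cMoP.

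Interferon-stimulated genes did not move as a block. Of 29 measured, 10 were higher in cMoP, 5 lower and 14 not called, and the median was 0.10 (0.00449 with median-of-ratios scaling and -0.07 with the length trend removed). Ifi209, a member of the PYHIN family of DNA-binding proteins, read 129, 123 and 131 FPKM in cMoP and 0.0434, 0.246 and 0.149 FPKM in proNeu2 (log2FC 6.81 ± 0.15, adjusted p = 1.17e-21). Ifi203 (25.5 ± 0.97 against 0.152 ± 0.0295 FPKM, 4.53 ± 0.12) and Ifi204 (2.99 ± 0.18) of the same gene cluster were higher too; these paralogs are alike in sequence, and how reads shared by them were counted is not given in the sources used here. The restriction factors Ifitm3 (136 ± 13.7 against 13.9 ± 3.73 FPKM, 3.22 ± 0.26), Ifitm1 (2.73 ± 0.34) and Mx1 (2.52 ± 0.12) were higher. Ddx58, the RNA sensor RIG-I, read 0.168, 0.236 and 0.0526 FPKM in cMoP and 11.3, 11 and 10.9 FPKM in proNeu2 (log2FC -3.39 ± 0.11, adjusted p = 1.59e-18), and Ifih1, the sensor MDA5 (-1.11 ± 0.08), Isg20 (-2.21 ± 0.19) and Oas2 (-1.23 ± 0.27) were lower with it. Ddx58 and Ifih1 thus stood on the proNeu2 side, and Ifi203, Ifi204 and Ifi209 on the cMoP side. Isg15 (-0.46) and Irf7 (0.10) were not called. Of 13 genes of the NF-kB and inflammatory list, 3 were higher (the chemokines Ccl9, 2.42 ± 0.16, and Ccl6, 1.33 ± 0.17, and Icam1, 1.49 ± 0.14), Nfkbia was lower (-1.29 ± 0.35) and 9 were not called.

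**Figure D4:**
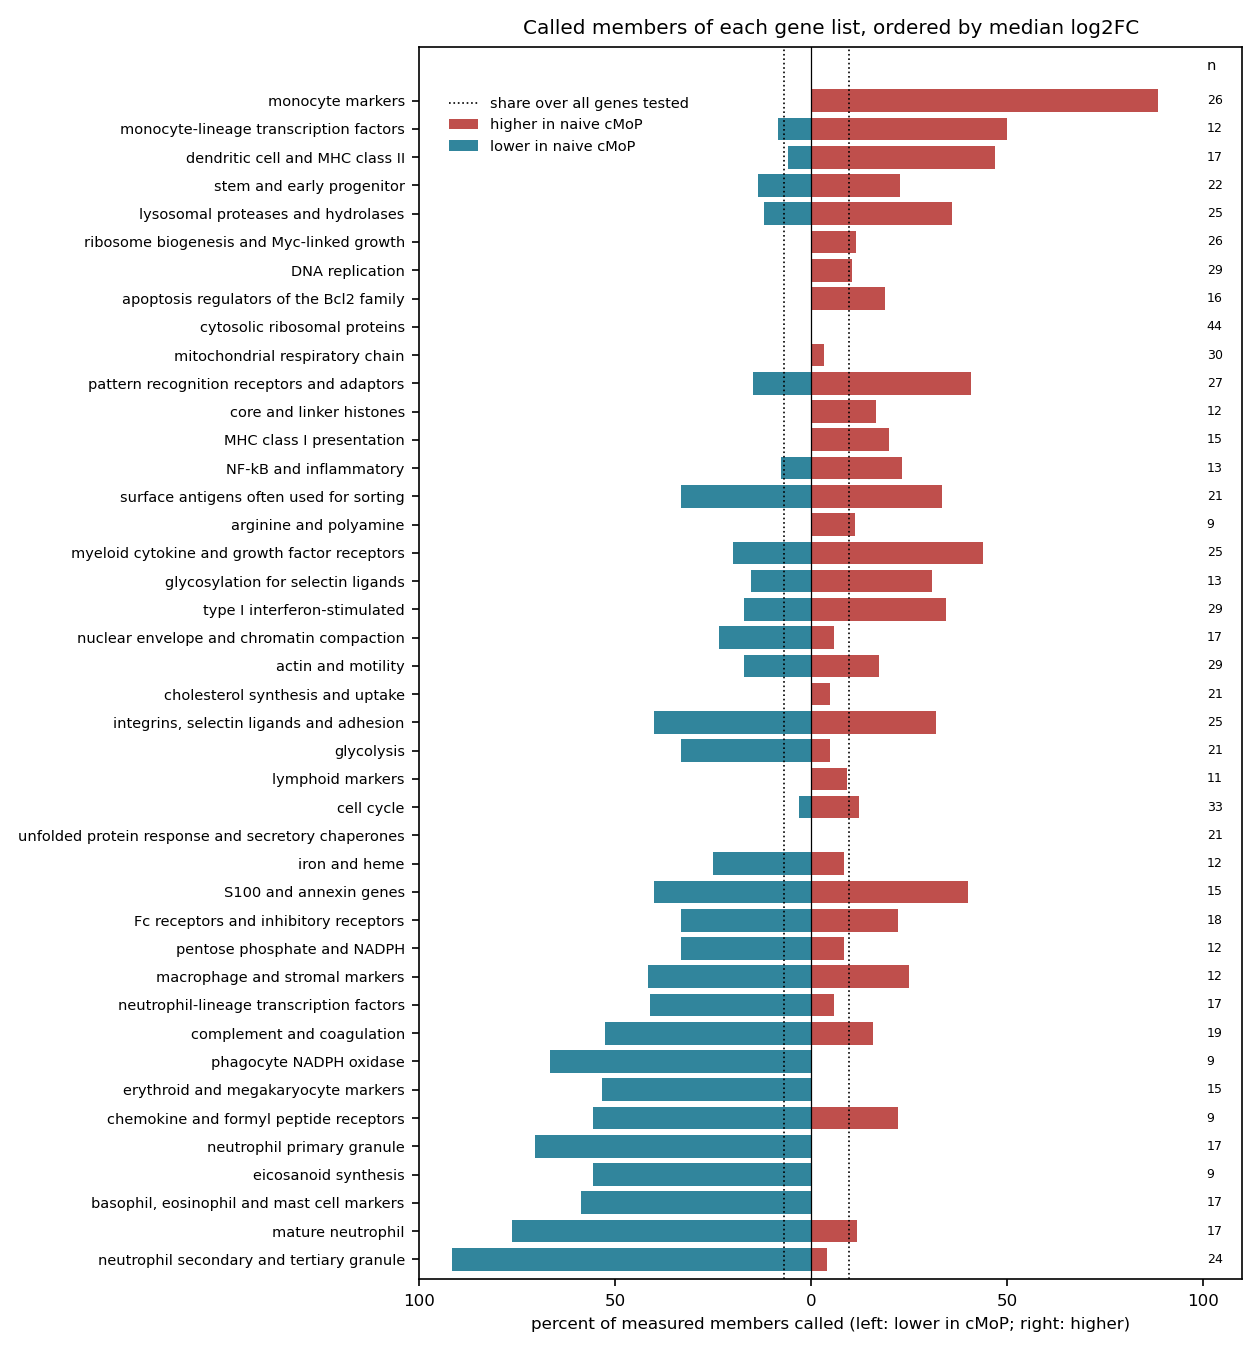
Percent of the measured members of 42 gene lists called higher (right) or lower (left) in naive cMoP than in naive proNeu2, ordered by median log2FC, with the number of measured members at the right edge. Dotted lines mark the shares over all genes tested, 9.56% higher and 7.02% lower, and the lists at both ends, monocyte markers and secondary and tertiary granule genes, exceed them most.

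Of 33 cell cycle genes, 4 were higher in cMoP, 1 lower and 28 not called (median -0.17), a share near the 16.6% of all tested genes called in either direction. The proliferation genes Mki67 (125 ± 9.27 against 156 ± 33 FPKM, -0.29) and Top2a (229.9 ± 2.25 against 219.7 ± 28.7 FPKM, 0.07) were not called. Ccnd1, cyclin D1, was the clear exception, with 9.57, 11.2 and 10.3 FPKM in cMoP and 0.25, 0.0679 and 0.103 FPKM in proNeu2 (log2FC 3.31 ± 0.16, adjusted p = 1.61e-15). Cdkn1a (1.62 ± 0.14) was higher as well, and Ube2c, the ubiquitin-conjugating enzyme of mitotic exit, was lower (38.1 ± 1.42 against 90.1 ± 3.5 FPKM, -1.22 ± 0.11). Cdk4 (1.01) and Ccne1 (1.04) passed narrowly and lost the call with median-of-ratios scaling (0.84 and 0.88). DNA replication genes were higher in 3 of 29 cases and not called in 26 (median 0.51), and in 1 case without proNeu2 replicate 1, where Gins2 (0.95) was among those under the fold threshold. Over all genes tested 9.56% were called higher. Ung, uracil-DNA glycosylase, was at 25.5 ± 0.139 against 8.21 ± 1.59 FPKM (1.54 ± 0.11). Of 26 genes of ribosome biogenesis 3 were higher, Npm1 (619 ± 31.1 against 272 ± 15.9 FPKM, 1.18 ± 0.11), Fbl (1.14 ± 0.11) and Gnl3 (1.07 ± 0.11), the last 2 not with median-of-ratios scaling (0.97 and 0.90). Cytosolic ribosomal proteins were called in 0 of 44 cases, with a median of 0.50 beside 0.15 over all genes, and 1 of 30 respiratory chain genes was called, Sdhb (1.27 ± 0.08).

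Sugar metabolism held several genes with more RNA in proNeu2. Of 21 glycolysis genes 7 were lower in cMoP, 1 was higher and 13 were not called (median -0.12). Pfkfb4 (4.72 ± 0.0873 against 34.7 ± 1.61 FPKM, -2.64 ± 0.09) and Pfkfb3 (10.4 ± 0.618 against 42.1 ± 0.192 FPKM, -1.92 ± 0.06), which make the activator of phosphofructokinase, the lactate exporter Slc16a3 (-1.94 ± 0.08), the glucose transporter Slc2a3 (-1.56 ± 0.16) and Gpi1 (-1.36 ± 0.05) were lower, and the phosphofructokinase Pfkm was higher (1.64 ± 0.12). The housekeeping enzyme Gapdh was at 1376 ± 36.1 against 1223 ± 7.6 FPKM (0.17). Of 12 pentose phosphate and NADPH genes 4 were lower, 1 was higher and 7 were not called (median -0.47). Pgd read 228, 207 and 226 FPKM in cMoP and 491, 509.7 and 505 FPKM in proNeu2 (log2FC -1.18 ± 0.07, adjusted p = 3.72e-13), and glutathione reductase Gsr was at 199 ± 5.0 against 549.7 ± 11.9 FPKM (-1.46 ± 0.07). The entry enzyme G6pdx was not called (-0.09), and Idh2 was the one higher (1.22 ± 0.07).

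Some nuclear genes differed, though most of those listed were not called. Syne1, the giant nesprin that links nucleus and cytoskeleton, read 0.296, 0.325 and 0.279 FPKM in cMoP and 43.9, 31.1 and 27.1 FPKM in proNeu2 (log2FC -4.72 ± 0.19, adjusted p = 4.2e-17). Its partner Sun2 was at 92.9 ± 3.21 against 517 ± 24 FPKM (-2.46 ± 0.09). Hmgn2, a nucleosome-binding protein, was at 379 ± 15.1 against 1312 ± 114 FPKM (-1.79 ± 0.08). Of 17 genes of the nuclear envelope and chromatin compaction, 4 were lower, 1 higher (Padi2, 3.53 ± 0.16) and 12 not called, the lamin B receptor Lbr among these (-0.02). The list median was -0.02, and over all genes 9.56% were higher and 7.02% lower. The histone variant gene Macroh2a1 was higher in cMoP (678 ± 7.49 against 220.0 ± 7.39 FPKM, 1.62 ± 0.05).

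Each population was then set beside its neighbour. Between proNeu2 and proNeu1, 11 genes were higher in proNeu2 (0.0966% of those tested) and 142 lower (1.25%), 1.34% in either direction, and leaving out proNeu2 replicate 2 took the first count to 20. On the monocyte marker list 9 of 26 were lower in proNeu2 than in proNeu1 and 0 higher, among them Ly86 (-1.98), Ms4a6c (-1.59), Ccr2 (-1.28), Csf1r (-1.11) and F13a1 (-1.05). On the progenitor list 6 of 22 were lower and 0 higher, with Cd34 (-3.22), Cd27 (-2.37) and Sox4 (-1.66). Of 24 secondary and tertiary granule genes 1 was higher (Fcnb, 1.41) and 1 lower, and of 17 primary granule genes 0 were called. Ltf stood at 1268 ± 164 FPKM in proNeu1 against 416 ± 33.2 in proNeu2, but it did not pass the test (-1.60 ± 0.72, adjusted p = 0.0965). That SE rests on a spread shared by all 10 groups, while each SD is that of its group alone. Between cMoP and MDP, 385 genes were higher in cMoP (3.38%) and 473 lower (4.16%), 7.54% in either direction. On the primary granule list 9 of 17 were higher in cMoP than in MDP and 0 lower, with Elane (3.58), Ms4a3 (3.23) and Prtn3 (1.87). On the secondary and tertiary granule list 10 of 24 were higher and 0 lower, with Chil3 (4.50), Fcnb (4.12) and Lcn2 (2.66), whereas Ngp (-0.24), Camp (0.13) and Ltf (-0.19) were not called. On the progenitor list 20 of 22 were lower in cMoP than in MDP, with Flt3 (-4.20) and Cd27 (-3.65), and Ly6c2 was the steepest of the panel on the higher side (4.61). These comparisons share their cMoP or proNeu2 libraries with the main one, so their values stand side by side only.

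Genes of stem cells and early progenitors also differed. Of 22, 5 were higher in cMoP, 3 lower and 14 not called (median 0.63), beside 9.56% higher and 7.02% lower over all genes, and 10 were higher with a pseudocount of 0.1 or with voom. Beside Cd34 and Flt3, the higher were Sox4 (15.5 ± 0.217 against 1.88 ± 0.357 FPKM, 2.53 ± 0.12), Cd27 (1.61 ± 0.16) and Hoxa7 (1.46 ± 0.12), and the lower were Hlf (0.429 ± 0.163 against 4.64 ± 0.437 FPKM, -1.98 ± 0.10), Erg (-1.22 ± 0.09) and Kit. Myc (0.28) and Meis1 (0.97) were not called.

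Markers of other cell types were measured beside these results. The 17 basophil, eosinophil and mast cell genes summed to 21.2 to 23.1 FPKM in cMoP and 369 to 400.0 FPKM in proNeu2, and to 18834 to 20812 FPKM in GMP. 10 of the 17 were lower in cMoP and 0 higher (median -2.02), led by Prg2, eosinophil major basic protein, at 0.233, 0 and 0 FPKM in cMoP and 145, 133 and 140.2 FPKM in proNeu2 (log2FC -7.03 ± 0.53, adjusted p = 1.8e-11). The eosinophil peroxidase Epx read 0.0242, 0.0708 and 0.019 FPKM in cMoP and 15.9, 11.5 and 10.7 FPKM in proNeu2, and Fcer1a and Il5ra were listed at 0 in all cMoP libraries. Histidine decarboxylase Hdc was at 8.63 ± 0.366 against 134 ± 3.48 FPKM (-3.81 ± 0.13), and the eosinophil ribonucleases Ear1, Ear2 and Ear6, near-identical copies whose reads may be split by the counting, were lower in cMoP (Ear1, -4.81 ± 0.37). The 15 erythroid and megakaryocyte genes summed to 35.9 to 39.5 FPKM in cMoP and 128 to 199 FPKM in proNeu2, where replicate 3 was the highest. 8 were lower in cMoP, and 4 without proNeu2 replicate 3, the globin genes being those lost. Hba-a1, whose copy Hba-a2 is near-identical, read 0.698, 1.96 and 0.219 FPKM in cMoP and 11.5, 10.6 and 31 FPKM in proNeu2. Gata1, Gp9 and Ppbp were among those listed at 0 in cMoP. The 12 macrophage and stromal genes summed to 60.7 to 63.2 FPKM in cMoP and 215 to 258 FPKM in proNeu2. The gap is mostly Vcam1 and the iron exporter Slc40a1, which read 0.0772, 0.136 and 0.121 FPKM in cMoP and 74.5, 85.7 and 83.1 FPKM in proNeu2 (log2FC -6.20 ± 0.10, adjusted p = 3.77e-24). The defining complement genes C1qa, C1qb and C1qc were listed at 0 in cMoP, and C1qa read 2.23, 2.01 and 1.23 FPKM in proNeu2. The 11 lymphoid genes summed to 265 to 286 FPKM in cMoP and 71.4 to 75.3 FPKM in proNeu2, nearly all from Ighm (254 ± 8.29 against 59 ± 1.12 FPKM, 2.09 ± 0.39) and Cd79b (20.2 ± 1.95 against 10.1 ± 0.676 FPKM, 0.93, not called). Jchain was listed at 0 in cMoP, and 2 of the 11 were called higher without cMoP replicate 1. The 17 dendritic cell and MHC class II genes summed to 868 to 938 FPKM in cMoP and 350 to 393 FPKM in proNeu2. The part of these cells in the results above was not tested.

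**Figure D5:**
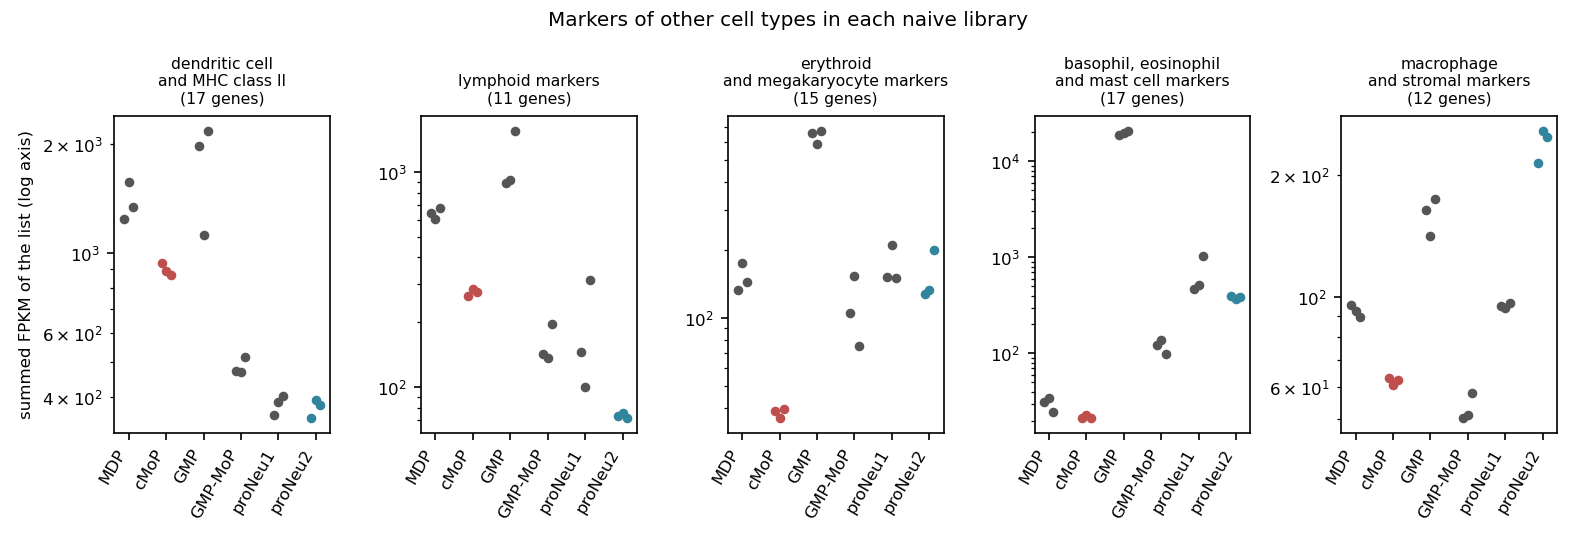
Summed FPKM of 5 marker lists of other cell types (log axis) in the 3 libraries of each naive population, cMoP in red and proNeu2 in blue. Basophil, eosinophil and mast cell markers sum to 21.2 to 23.1 FPKM in cMoP and 369 to 400.0 FPKM in proNeu2. The summed dendritic cell and MHC class II genes are higher in cMoP, though of the 17 only 8 were called higher, with 1 lower and 8 not called.

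At the other end were genes that both populations expressed strongly and alike. The 10 most abundant genes without a call and with a log2FC under 0.25 in size were Gapdh, Gpx1, Rps29, B2m, Hspa8, Rps27a, Calr, Lyz2, Rpl37a and Hnrnpa2b1. Gpx1, glutathione peroxidase, read 1225, 1157 and 1229 FPKM in cMoP and 1050.1, 1244 and 1355 FPKM in proNeu2, with overlapping libraries (log2FC -0.01 ± 0.08, adjusted p = 0.933). Calr, the chaperone calreticulin, read 915, 847 and 1022 FPKM in cMoP and 1015, 1028 and 1015 FPKM in proNeu2 (log2FC -0.14 ± 0.11, adjusted p = 0.254). The chaperones of the secretory pathway as a list had 0 of 21 members called (median -0.24), with Hspa5 at 268 ± 18.4 against 389 ± 40.0 FPKM (-0.53).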

How the data were processed

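The RNA was total RNA from sorted bone marrow progenitors, prepared with a directional library kit, per the labels' protocols. Reads were trimmed with Trimmomatic 0.38.0, aligned with STAR 2.7.8 and counted with featureCounts 2.0.1 (builds GRCm38 and mm10 named), per the submitters' processing notes. The authors deposited FPKM for 11383 genes, the lowest with a mean of 1.00 FPKM over 30 libraries. Strand setting, handling of multi-mapping reads and scaling steps are not given in the sources used here.

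Log2(FPKM + 1) was fitted in limma 3.58.1 (R 4.3.3) with an intensity trend, all 30 libraries and 10 group means. The planned filter, at least 1 FPKM in 3 libraries, removed no gene. Low values were whole multiples of 1 read for 11383 of 11383 genes (tolerance 0.02 reads, or 1e-07 of larger counts, at most 0.1), and for 0 of 200 shuffled genes. The recovered reads gave the depth, and limma's voom on them called 1533 genes higher and 1001 lower in cMoP. On simulated data for the main comparison with 11383 genes, 35 of 100 genes changed by a fold of 2, 99 of 100 changed by a fold of 4 and 0 of 11183 unchanged genes were called. The simulation gave all groups a common mean per gene, a fixed spread and no difference in scaling, and changed only genes with many reads. Its 0 false calls therefore give no error rate for the real libraries. Replicates of cMoP and proNeu2 differed by more than counting noise.

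Named were up to 12 leading genes per direction (mean of at least 10 FPKM, no overlap), up to 6 called members per list, a panel of 30 genes and 10 genes of like level. Other list members were named after their values were seen, and some are not reported here. The comparison, the panel and the 42 lists (811 of 941 listed genes measured) were chosen with earlier results of these data known. Gene positions come from GENCODE on GRCm38, and tables and plots from Python 3.11.15, numpy 2.4.6, pandas 2.3.3 and matplotlib 3.10.9. Alternatives were another pseudocount, scaling, filter, sample set, replicate block, length correction and leaving out each library.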

Additional observations from a re-analysis of the deposited data

How the results depend on the processing

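No gene called in the main comparison was called in the other direction under any of 15 alternatives, and 187 of 200 named genes kept their side of the threshold wherever they were tested, which was 179 of them with a mean of at least 5 FPKM. Most named genes were picked for being called, as 185 of the 200 were, so that count says little about the other genes. Of all genes called higher, 83.2% kept the call with median-of-ratios scaling and 78.9% with the length trend removed. Of those called lower, 100% kept it under both. Leaving out 1 library gave 1042 to 1128 genes higher in cMoP and 779 to 819 lower. Requiring a mean of at least 5 FPKM (8066 genes tested) left 628 higher and 559 lower, while a pseudocount of 0.1 gave 1490 and 977. Between proNeu2 and proNeu1, leaving out 1 library gave 11 to 20 genes higher and 132 to 172 lower. The number higher was 27 with a pseudocount of 0.1, 17 with median-of-ratios scaling, 5 with the mean of at least 5 FPKM, 19 with voom and 22 with the length trend removed, and the number lower was 540 with the pseudocount of 0.1 and 546 with voom. Between cMoP and MDP, leaving out 1 library gave 377 to 387 higher and 463 to 491 lower, and the number lower was 730 with the pseudocount of 0.1, 202 with the mean of at least 5 FPKM and 757 with voom. Beyond the smaller number of genes tested at 5 FPKM, the cause was not tested. The replicate block gave 1092 higher and 799 lower in the main comparison, 13 and 145 between proNeu2 and proNeu1 and 384 and 476 between cMoP and MDP. Deviations of same-numbered cMoP and proNeu2 libraries correlated at -0.00926, -0.202 and 0.156, so the numbers were not taken as pairs.

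Of the 13 named genes with a changed call, 8 lay near the fold threshold. All 4 globin genes lost the call without proNeu2 replicate 3 (adjusted p = 0.0581 for Hba-a1, 0.0624 for Hbb-bs and 0.134 for Hbb-bt and Hba-a2), Hbb-bt and Hba-a2 also without other single libraries, and Hba-a1 (0.0761) and Hbb-bs (0.0912) with voom. The number of MHC class I genes lower in cMoP went from 0 to 1 without proNeu2 replicate 2, and that of cholesterol genes from 0 to 1 without cMoP replicate 3. Changes near a fold of 2 lie at the threshold itself, and levels near 0 rest on few reads.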

Other observations

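Of 16 apoptosis regulators, 3 were higher in cMoP, 0 lower and 13 not called (median 0.51), a share near the 16.6% called over all genes. Bcl2, the founding survival factor, read 15.6, 17.1 and 16.6 FPKM in cMoP and 1.13, 1.29 and 1.38 FPKM in proNeu2 (log2FC 2.95 ± 0.09, adjusted p = 2.27e-19), with no overlap. The pro-apoptotic p53 target Bbc3 (5.51 ± 0.126 against 0.426 ± 0.292 FPKM, 2.21 ± 0.19) was higher beside it, so that members of opposite role stood on one side. Mcl1, on which neutrophil survival depends, was not called (0.49), nor was Bcl2l1 (-0.94).

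Actin and motility genes were higher in cMoP in 5 of 29 cases, lower in 5 and not called in 19. Over all genes 9.56% were higher and 7.02% lower. Tmsb10, thymosin beta 10, read 697, 572 and 693 FPKM in cMoP and 26, 26.9 and 27.3 FPKM in proNeu2 (log2FC 4.55 ± 0.11, adjusted p = 4.29e-21), whereas its relative Tmsb4x was lower in cMoP (-1.04 ± 0.10). Gelsolin, Gsn, read 5.52, 3.9 and 4.11 FPKM in cMoP and 106, 120.1 and 111 FPKM in proNeu2 (log2FC -4.37 ± 0.21, adjusted p = 1.3e-15), and the related capping protein Capg was higher in cMoP (63.5 ± 3.98 against 13.7 ± 1.98 FPKM, 2.14 ± 0.13). Vimentin, Vim, was higher (1.72 ± 0.08), and actin itself, Actb, was not called (-0.53).

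Of 13 enzymes that build selectin ligands, 4 were higher in cMoP, 2 lower and 7 not called. The counts of this paragraph stand beside 9.56% higher and 7.02% lower over all genes. A single called member is no result about its list. B4galt6, a galactosyltransferase, read 12, 11.4 and 12.9 FPKM in cMoP and 139.5, 144 and 139 FPKM in proNeu2 (log2FC -3.44 ± 0.10, adjusted p = 2.27e-19). Fut7, the fucosyltransferase of selectin ligands, was at 27.1 ± 1.07 against 10.2 ± 1.15 FPKM (1.33 ± 0.10), and the tyrosine sulfotransferase Tpst1 was higher in cMoP (2.84 ± 0.14). Among 12 iron genes 1 was higher, 3 were lower and 8 not called. The transferrin receptor Tfrc (33.4 ± 4.02 against 86.2 ± 6.44 FPKM, -1.35 ± 0.15) and the heme synthesis enzyme Alas1 (-1.34 ± 0.13) were lower with Slc40a1, and ferritin heavy chain Fth1 (254 ± 8.15 against 106 ± 4.46 FPKM, 1.26 ± 0.06) was higher. Ass1, argininosuccinate synthase, the one called gene of 9 in arginine and polyamine metabolism, read 281, 273 and 268 FPKM in cMoP and 11.2, 8.95 and 12.2 FPKM in proNeu2 (log2FC 4.55 ± 0.12, adjusted p = 1.29e-20). Of 21 cholesterol genes 1 was called, Cyp51 (1.30 ± 0.14), and of 12 histone genes 2 were higher, H2bc4 (1.66 ± 0.15) and Macroh2a1.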
